A study of Mus musculus with 28 samples.

Results

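Small nucleolar RNAs (snoRNAs) were described across 28 Affymetrix Mouse Gene ST arrays of mouse embryonic stem (ES) cells. A probe set counted as a snoRNA when its 1 platform gene symbol began with Snora or Snord. Where a symbol had several probe sets, the one with the highest mean over all arrays was kept, and no expression filter was applied. This gave 51 snoRNAs of 19938 symbols tested, 20 of them Snora and 31 Snord. The series, whose title names hotspot mutations of DICER1 as a cause of defective microRNA processing, compared 9 groups of arrays. A Dicer wild-type ES line (n = 2) and a Dicer-/- line, here called the Dicer-null line (n = 3), carried no transgene. All other groups were Dicer-/- ES cells carrying a transgene in a vector. The eGFP vector (n = 3), DICER1 D1709A (n = 4), E1705K (n = 3) and D1810Y (n = 3) were in pLD-puro-ENvA, and D1709N (n = 2) and E1813Q (n = 2) were in pLD-puro-PGKnvA. Wild-type DICER1 (n = 6) was carried by pLD-puro-ENvA on 4 arrays and by pLD-puro-PGKnvA on 2. The labels tie neither line to a clone and do not say whether replicates were separate cultures, so a p-value reflects only how far these arrays scatter, and that scatter may be technical.

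snoRNAs are short, stable RNAs that guide the chemical modification of other RNAs, above all ribosomal RNA, in the nucleolus. The box H/ACA family, whose genes are named Snora, directs the conversion of uridine to pseudouridine. The box C/D family, whose genes are named Snord, directs methylation of the ribose. A few members, among them U8, U14, U17 and U22, serve in the cleavage of the ribosomal RNA precursor. In mammals most snoRNAs lie in introns of host genes, many of which encode ribosomal proteins or translation factors, and are trimmed out of the spliced intron. Other hosts are long non-coding RNAs. DICER1 itself is the ribonuclease that cuts microRNAs from their hairpin precursors.

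By position in the RefSeq table of GRCm38.p6, 50 of the 51 snoRNA genes lay inside another gene and 47 inside exactly 1. The exception was Snord118, the U8 RNA, which had no host in that table. The host was protein-coding for 37 snoRNAs, a long non-coding RNA for 10 and both kinds for 3. Annotated lengths ran from 45 to 205 nucleotides. A probe set inside an intron can bind the mature snoRNA and unspliced host RNA alike, and these cannot be told apart here.

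Host genes of ribosomal proteins are known for transcripts that begin in a run of pyrimidines. The 40 bases around the annotated start (20 on each side) are shown for the single hosts, as far as the table holds them, of the 8 snoRNAs that fell most between the mutants and wild-type DICER1. Those of Rack1, Snhg12 and Wdr43, whose snoRNAs are described for the rescue, the parental lines and single mutants, were added after the values were seen. Sequences are from RefSeq (GRCm38.p6) on the strand of the gene, 5′ to 3′, and capitals mark an unbroken run of 8 or more C or T. The windows of the first 6 are chr1:63176811-63176850 for Eef1b2 (plus strand), chr1:86359436-86359475 for Ncl (minus strand), chr11:97782420-97782459 for Rpl23 (minus strand), chr4:132353667-132353706 for Snhg3 (minus strand), chr17:12916309-12916348 for Tcp1 (plus strand) and chr14:75845236-75845275 for Tpt1 (plus strand). None of these 6 holds such a run at the start taken, which was the first one listed for each gene. The added windows are chr11:48800340-48800379 for Rack1 (plus strand), chr4:132308658-132308697 for Snhg12 (plus strand) and chr17:71616195-71616234 for Wdr43 (plus strand), of which Rack1 and Snhg12 hold one.
Eef1b2: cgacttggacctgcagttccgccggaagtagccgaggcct
Ncl: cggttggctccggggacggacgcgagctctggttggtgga
Rpl23: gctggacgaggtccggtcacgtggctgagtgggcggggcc
Snhg3: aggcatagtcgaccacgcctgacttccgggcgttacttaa
Tcp1: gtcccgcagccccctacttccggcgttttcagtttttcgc
Tpt1: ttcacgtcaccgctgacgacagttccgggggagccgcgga
Rack1: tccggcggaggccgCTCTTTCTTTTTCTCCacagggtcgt
Snhg12: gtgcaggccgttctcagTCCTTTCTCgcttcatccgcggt
Wdr43: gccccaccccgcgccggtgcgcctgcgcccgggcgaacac
Of the 37 hosts that were the only host of a snoRNA, 29 had a promoter in the table. Such a run was present in the window of 11 of these 29 (37.9%) and in 15.9% of the 27025 promoters in the table. Among protein-coding genes it was present for 8 of 23 hosts (34.8%) against 15.5% of 17492. A run so counted may lie before or after the start. At the annotated start itself, a C followed by 4 pyrimidines was present for 4 of the 29 hosts (13.8%) and in 2.49% of all promoters. Other starts of a gene and the opposite strand were not searched, and a window without a run says only that these letters are not in it.

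Levels are deposited log2 values. The median over the deposited table lay, array by array, between 7.14 and 7.27, and 49 of the 51 snoRNAs lay at or above 6.42, the 30th percentile of all symbols. The exceptions were Snord58b and Snord61. The 10 ES markers had mean levels between 9.90 and 13.60. Dicer1, the targeted gene, was at 10.68 ± 0.049 (SD, n = 2) where Dicer was wild type, at 9.27 ± 0.042 (n = 3) where it was null, and between 8.91 and 9.39 in the means of the transgene groups. Whether its probe set covers the deleted stretch or detects the transgene is not known here. The mean of the PGKnvA and the mean of the ENvA wild-type DICER1 arrays were equal within 7.5e-05 for every probe set, and the deposited arrays obeyed 3 exact linear relations in all. The arrays thus hold fewer independent values than the fit assumes. Since the fit pools the spread over all groups, every p-value and count of calls below is approximate, those of the parental lines and the vector included.

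The mean snoRNA level was higher in the Dicer wild-type line and with wild-type DICER1 than on any array of the other 7 groups. Averaged over the 51 probe sets, the Dicer wild-type line gave 9.71 and 9.85 on its 2 arrays and the Dicer-null line 9.37, 9.41 and 9.43. The eGFP arrays gave 9.53, 9.36 and 9.62, and the 6 wild-type DICER1 arrays ran from 9.76 to 9.82. Every one of the 14 mutant arrays lay below every wild-type DICER1 array, from 9.29 on an array of D1709N to 9.71 on an array of D1810Y. The Dicer wild-type line overlapped the wild-type DICER1 arrays. The Snora means did not overlap between wild-type DICER1 (9.97 to 9.99) and the mutants (up to 9.83, in D1810Y), whereas the Snord means did, with 9.625 on the lowest wild-type DICER1 array and 9.635 on the highest of D1810Y.

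**Figure D1:**
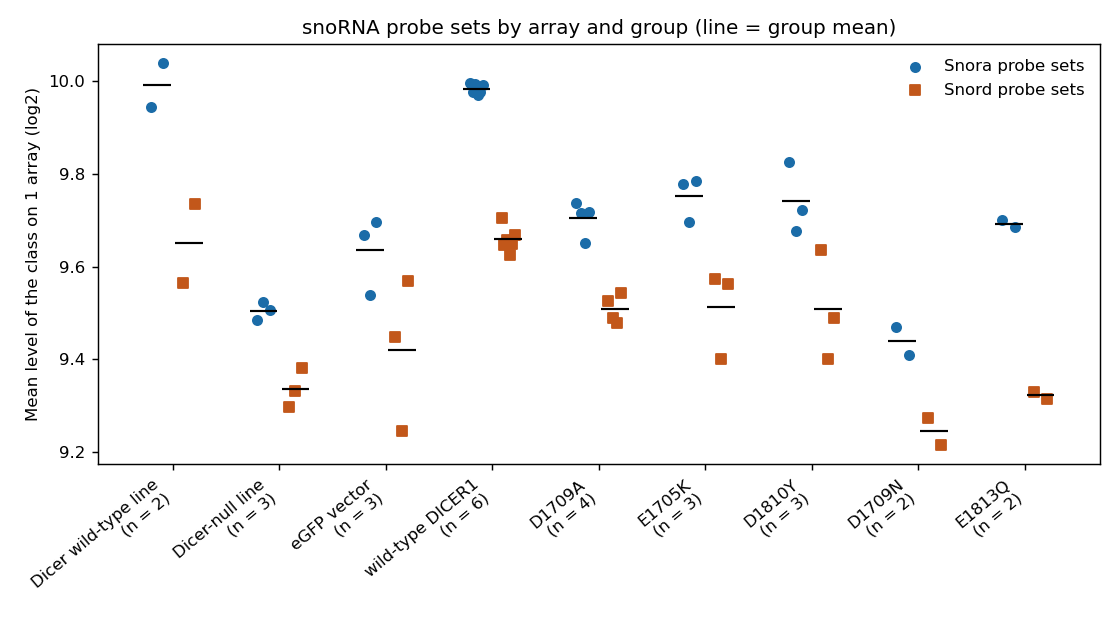
Mean log2 level over the 20 Snora probe sets (blue circles) and the 31 Snord probe sets (orange squares) on each array, by group, with a line at the group mean. For Snora, the 6 wild-type DICER1 arrays and the Dicer wild-type line lie above all other arrays, whereas for Snord they overlap single arrays of D1810Y (up to 9.635), E1705K and eGFP.

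Between the parental lines, 32 of 51 snoRNAs were lower and 1 was higher in Dicer-null cells (adjusted p under 0.05, limma with Benjamini-Hochberg adjustment over all 19938 symbols). Of all symbols, 42.2% were called, 22.4% higher and 19.8% lower. The median difference was -0.40 over the snoRNAs and 0.02 over all symbols. All called Snora probe sets fell (16 of 20), and of the 31 Snord 16 fell and 1 rose. On 39 snoRNAs every Dicer-null array lay below both arrays of the Dicer wild-type line, which held for 28.7% of all symbols, and on 1 every Dicer-null array lay above (32.6%). In bulk RNA, fewer cells of a type and less RNA per cell cannot be told apart.

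The falls of 2-fold or more were in Snora16a, Snora74a and Snord38a. Snora16a, in an intron of the non-coding Snhg12, read 11.33 and 11.38 in the Dicer wild-type line and 10.23, 10.23 and 10.20 in the Dicer-null line, a difference of -1.13 ± 0.049 (SE; 2.19-fold; adjusted p = 2.22e-16). Snora74a, the U19 RNA hosted by Snhg4, read 9.81 and 9.83 against 8.76, 8.80 and 8.52, a difference of -1.13 ± 0.074 (adjusted p = 1.01e-12). Neither snoRNA had overlapping arrays. Snord38a read 7.43 and 7.39 against 6.30, 6.30 and 6.54, a difference of -1.03 ± 0.19 (adjusted p = 5.02e-05). Its Dicer-null values were near the 30th percentile level of 6.42, where sizes of change are less sure.

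Snora73a and Snora73b, the pair of U17 RNAs hosted by Snhg3 and needed for cleavage of the ribosomal RNA precursor, fell alike. Snora73b read 12.01 and 12.03 in the Dicer wild-type line and 11.23, 11.31 and 11.20 in the Dicer-null line (-0.78 ± 0.046, adjusted p = 1.03e-13). Snora73a fell by 0.70 on the log2 scale (SE 0.0495, adjusted p = 3.9e-12). Others among the 8 largest falls were Snord87 (-0.81), Snord73b (-0.77) and Snora33 (-0.75), hosted by Snhg6 and Mcmdc2, by Rps3a1 and by Rps12. The 1 rise was Snord57, in an intron of Nop56, which encodes a core protein of box C/D particles. It read 11.53 and 11.65 in the Dicer wild-type line and 12.31, 12.29 and 12.55 in the Dicer-null line (0.79 ± 0.086, adjusted p = 1.24e-08). On all 26 other arrays Snord57 was at 12.07 or above, so the Dicer wild-type line stood alone for it.

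Against the eGFP vector in the same Dicer-/- cells, a comparison here called the rescue, 35 of 51 snoRNAs were higher with wild-type DICER1 and 3 were lower. Of all symbols, 44.2% were called, 23.1% higher and 21.0% lower. The median difference was 0.28 over the snoRNAs and 0.02 over all symbols. Of the Snora, 18 of 20 rose and none fell, and of the Snord, 17 of 31 rose and 3 fell. On 30 snoRNAs every wild-type DICER1 array lay above every eGFP array (22.3% of all symbols), and on 3 every one lay below (20.5%). Without 1 array in turn, between 26 and 37 snoRNAs rose, and 26 rose in every such fit. Between the same groups, 5 of 9 fibroblast or feeder markers were higher and none lower, with array means of the list at 6.86 to 7.08 with wild-type DICER1 and 6.37 to 6.58 with eGFP. Of the 8 neural markers, 2 were higher and 3 lower. The mean levels of the 9 fibroblast or feeder markers ran from percentile 3.4 of all symbols (Lum) to percentile 57.1 (Col1a1). The part of these markers in the snoRNA result was not tested.

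The rises reached 0.77 on the log2 scale. Snord53, in an intron of Wdr43, a gene of a ribosome assembly factor, read 11.14, 11.23 and 11.44 with eGFP. With wild-type DICER1 its lowest, median and highest arrays were 11.86, 12.05 and 12.18 (0.77 ± 0.086, 1.7-fold, adjusted p = 2.98e-08). The groups did not overlap. Snord118, the U8 RNA of large-subunit ribosomal RNA maturation, read 8.38, 8.30 and 8.45 with eGFP and 8.97, 9.04 and 9.10 as lowest, median and highest with wild-type DICER1 (0.66 ± 0.077, adjusted p = 4.66e-08). Snord95, in an intron of Rack1, a gene of a ribosome-bound scaffold protein, read 10.08, 9.88 and 9.93 with eGFP and 10.59, 10.62 and 10.63 (lowest, median, highest) with wild-type DICER1 (0.66 ± 0.047, adjusted p = 7.25e-12). Its neighbour in the same host, Snord96a, rose by 0.44 (SE 0.0602). For Snord118, Snord95 and Snord96a, every wild-type DICER1 array lay above every eGFP array. In the Dicer-null line without a transgene, Snord53 (11.72, 11.79 and 11.95) and Snord118 (9.04, 9.11 and 9.06) lay above their eGFP values. Snord95 (9.58, 9.62 and 9.55) and Snord96a (7.64, 7.66 and 7.50) lay below theirs.

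Among box H/ACA RNAs, Snora20 (0.65 ± 0.088), Snora75 (0.64 ± 0.063), Snora74a (0.63 ± 0.062) and Snora31 (0.52 ± 0.060) rose with wild-type DICER1, with adjusted p between 2.18e-09 and 6.53e-07. Snora73a rose by 0.33 and Snora73b by 0.29. Snord85 (0.71), Snord58b (0.67) and Snord38a (0.63) were also among the 8 largest rises. Snord58b lay below the 30th percentile level, and without array 2 of eGFP its difference was 0.45 at an adjusted p of 0.0647. The 3 falls were Snord61 (-0.64), Snord57 (-0.28) and Snord14e (-0.16). Snord61 lay below the 30th percentile level, and without array 1 of eGFP its difference was -0.50 with an adjusted p of 0.0564.

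Taking the 5 hotspot mutants together with equal weights, 39 of 51 snoRNAs were lower than with wild-type DICER1 and 1 was higher. Of all symbols, 46.1% were called, 24.1% higher and 22.1% lower. The median difference was -0.26 over the snoRNAs and -0.01 over all symbols. Of the Snora 18 of 20 fell and 1 rose, and of the Snord 21 of 31 fell and none rose. On 15 snoRNAs all 14 mutant arrays lay below all 6 wild-type DICER1 arrays (5.83% of all symbols). No snoRNA had all mutant arrays above (6.43% of all symbols). Between the same groups, 1 fibroblast marker of 9 was higher and 4 were lower, 5 neural markers of 8 were higher and 1 lower, and 2 ES markers of 10 were higher and 7 lower. The part of these markers in the result was not tested.

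Snora31, in an intron of Tpt1, the gene of a translationally controlled protein, fell furthest. Its lowest, median and highest arrays were 9.18, 9.25 and 9.30 with wild-type DICER1 and 7.95, 8.68 and 8.92 over the 14 mutant arrays (-0.73 ± 0.039, 1.66-fold, adjusted p = 2.65e-14). By group it was at 8.71 ± 0.035 (SD, n = 4) in D1709A, 8.73 ± 0.072 (n = 3) in E1705K, 8.76 ± 0.14 (n = 3) in D1810Y, 8.02 ± 0.094 (n = 2) in D1709N and 8.36 ± 0.080 (n = 2) in E1813Q. The 2 mutants in PGKnvA were thus lower than the 3 in ENvA. D1709N and E1813Q were made in PGKnvA alone, and mutation and vector cannot be told apart for them.

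Snora20, in Tcp1, a chaperonin gene, was at 8.59, 8.79 and 8.87 (lowest, median, highest) with wild-type DICER1 and at 7.80, 8.22 and 8.47 over the mutants (-0.62 ± 0.057, adjusted p = 7.71e-10). Snora21, in Rpl23, was at 10.22, 10.27 and 10.35 against 9.50, 9.78 and 9.93 (-0.56 ± 0.046, adjusted p = 8.68e-11). Snora73a was at 11.53, 11.60 and 11.69 against 10.99, 11.19 and 11.31 (-0.43 ± 0.027, adjusted p = 4.8e-13). For each of these the mutant arrays lay below all wild-type DICER1 arrays. Snord38a (-0.55), Snora41 (-0.53), Snord87 (-0.51) and Snora75 (-0.50) completed the 8 largest falls, with adjusted p of 5.71e-05 or less. The 11 snoRNAs not called were Snora23 and 10 Snord, among them Snord42b (-0.00 ± 0.034), Snord57 (-0.01 ± 0.047) and Snord14e (-0.06 ± 0.030).

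Each mutant was also set alone against wild-type DICER1. D1709N had the most snoRNAs called, with 39 lower and 2 higher (29.4% of all symbols called). E1813Q had 31 lower and 1 higher (29.7%) and D1709A 31 lower and 2 higher (32.8%). E1705K had 25 lower and 2 higher (34.5%) and D1810Y 25 lower and 3 higher (39.4%). The median differences over the 51 were -0.21, -0.18 and -0.19 for D1709A, E1705K and D1810Y, and -0.48 and -0.34 for D1709N and E1813Q. Tested directly, the mutants in PGKnvA differed from those in ENvA on 18 of 51 snoRNAs, 16 lower and 2 higher (11.5% of all symbols called, 6.00% lower and 5.53% higher).

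The same difference was computed within each set of arrays that the labels set apart, as point estimates with no test. Among arrays numbered 1 to 3 in ENvA, 43 of 51 snoRNAs were lower in the mutants than in wild-type DICER1 by point estimate, with a median of -0.20 (-0.01 over all symbols, of which 52.2% were below 0). For the replicates numbered 4, with 1 array of D1709A and 1 with the wild-type transgene, 40 were lower, with a median of -0.08 (-0.03 over all symbols, 54.2% below 0), so this set adds little. Among PGKnvA arrays 49 were lower, with a median of -0.43 (0.00 over all symbols, 49.3% below 0). In all 3 sets 32 snoRNAs were lower, and in none of the 51 were all 3 sets higher. The 3 sets are not independent repeats. In the deposited values the wild-type DICER1 mean was the same in PGKnvA as in ENvA. The arrays numbered 4 departed from the means of arrays 1 to 3 of their groups by equal and opposite amounts.

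**Figure D2:**
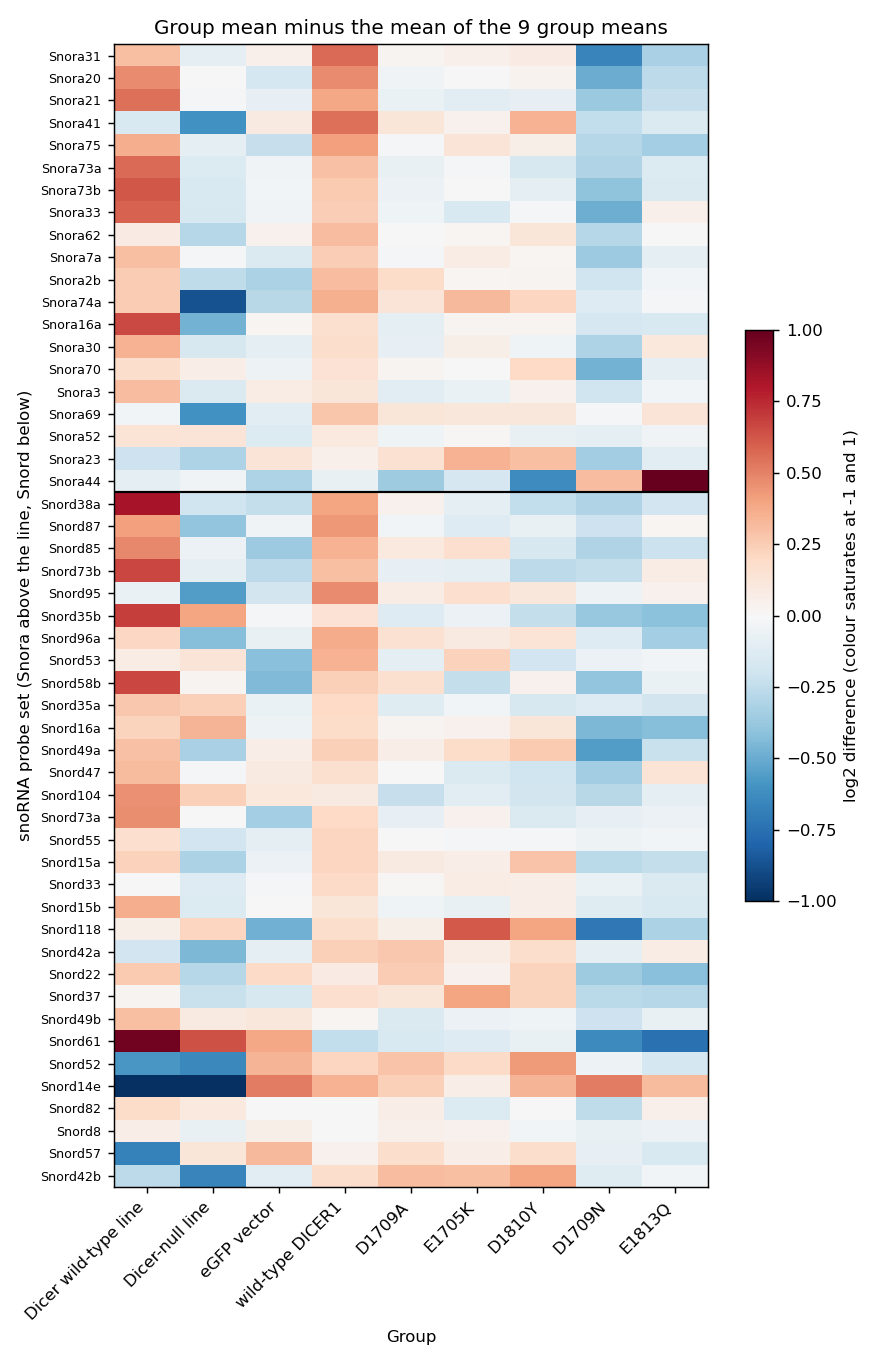
Group mean of each of the 51 snoRNA probe sets minus the mean of its 9 group means, in log2 units, with red for higher and blue for lower and colours saturating at -1 and 1. Within each class, probe sets are ordered by the difference between mutants and wild-type DICER1. Most Snora are red in the Dicer wild-type line and with wild-type DICER1 and blue in the Dicer-null line, and Snora44 is reddest in E1813Q.

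The eGFP vector itself went with changes in both directions. Against Dicer-null cells without a transgene, 18 snoRNAs were higher and 10 lower (34.3% of all symbols called, 14.7% higher and 19.6% lower). The median was 0.10 over the snoRNAs and -0.03 over all symbols. All eGFP arrays lay above all Dicer-null arrays on 18 snoRNAs (19.6% of all symbols) and below them on 12 (26.2%). Between the same groups, 4 of 8 neural markers were higher and none lower, with array means of the list at 7.31 to 7.33 in the Dicer-null line and 7.86 to 7.92 with eGFP. Of the 10 ES markers 1 was higher and 6 lower, and of the 9 fibroblast or feeder markers 1 was higher. Their part in the result was not tested. The largest rise was in Snord14e, a copy of the U14 RNA in an intron of Hspa8, the gene of a constitutive chaperone. It read 10.07, 10.09 and 10.01 in the Dicer-null line and 11.84, 11.78 and 11.78 with eGFP (1.74 ± 0.049, 3.35-fold, adjusted p = 7.67e-20). The host Hspa8 differed by -0.01 between the same groups. Snord14e was between 10.01 and 10.21 on all 5 arrays without a transgene and between 11.32 and 11.84 on all 23 with one, whichever transgene they carried. Snord52, in the non-coding 1110038B12Rik, read 8.178, 8.215 and 8.142 against 9.186, 9.001 and 9.296 (0.98 ± 0.093, adjusted p = 2.84e-09) and had no overlap between those groups either. The largest falls were in Snord118 (-0.70 ± 0.082) and Snord53 (-0.55 ± 0.092), which were higher again with wild-type DICER1. Without array 2 of the Dicer-null line, 6 snoRNAs fell in place of 10.

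Against the eGFP vector, the mutants together had 9 snoRNAs higher and 9 lower. Of all symbols, 39.4% were called, 21.6% higher and 17.8% lower. The median was -0.05 over the snoRNAs and 0.01 over all symbols. This balance depended on the mutants taken. With the ENvA mutants alone, 19 rose and 4 fell. After subtracting every array's own median, 7 rose and 16 fell. The fit without a vector term gave 12 higher and 15 lower. The largest difference among the rises was in Snord118 (0.49 ± 0.073). Its 3 ENvA mutants had means of 8.91, 9.47 and 9.25 (D1709A, E1705K, D1810Y) and its PGKnvA mutants 8.14 and 8.55 (D1709N, E1813Q), against 8.38 ± 0.078 (SD, n = 3) with eGFP. Snora74a read 9.29, 9.29 and 9.28 with eGFP and 9.40, 9.67 and 9.94 (lowest, median, highest) over the mutants, without overlap (0.38 ± 0.059, adjusted p = 6.38e-06). The same held for 1 other snoRNA, Snora69 (2 in all, against 11.2% of all symbols). Snord104, in the non-coding Gm36220, was the 1 snoRNA with all mutant arrays below all eGFP arrays (-0.29 ± 0.042, adjusted p = 3.19e-06), as were 10.4% of all symbols.

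Of the 35 snoRNAs that rose with wild-type DICER1 over eGFP, 23 were not called between the mutants and eGFP, 9 were higher and 3 lower. The 9 were Snora2b, Snora44, Snora69, Snora74a, Snord118, Snord42b, Snord53, Snord85 and Snord95. The 3 were Snora31, Snora73a and Snora73b, with differences of -0.21, -0.10 and -0.11. With the ENvA mutants alone, that for Snora31 was 0.01 and that for Snora73b -0.02, neither called. These comparisons share the eGFP arrays.

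The comparison of the parental lines shares no array with the comparisons of cells with wild-type DICER1. Of the 32 snoRNAs lower in the Dicer-null line, 27 rose with wild-type DICER1, which is 84.4% of the 32 and 77.1% of the 35 that rose. Over all symbols, 2307 did so, 58.5% of the 3945 lower in the Dicer-null line, out of 4613 that rose. Of the same 32, 31 were lower in the mutants than with wild-type DICER1, which is 96.9% of the 32 and 79.5% of the 39. Over all symbols the shares were 40.6% and 36.4%. Across the 51 snoRNAs, Pearson's r between the parental and the rescue differences was -0.39, against -0.60 over all symbols. Between the parental and the mutant differences it was 0.49, against 0.18 over all symbols. These describe probe sets that share arrays within each comparison, and they carry no p-value. The rescue and the mutant comparison also share the 6 wild-type DICER1 arrays. High values on these arrays raise the former difference and lower the latter at once. In all, 26 snoRNAs were lower in the Dicer-null line, higher with wild-type DICER1 and lower with the mutants, each past the threshold, which is 51.0% of the snoRNAs against 6.64% of all symbols. They were 15 Snora and 11 Snord, and included Snora16a, Snora20, Snora21, Snora31, Snora73a, Snora73b, Snora74a, Snora75, Snord38a, Snord87, Snord95 and Snord96a. Group means differed by 1 or more on 16 snoRNAs, namely Snora16a, Snora31, Snora33, Snora41, Snora44, Snora73b, Snora74a, Snord118, Snord14e, Snord35b, Snord38a, Snord42b, Snord52, Snord58b, Snord61 and Snord95. In no comparison were Snord37, Snord42a, Snord49b, Snord8 and Snord82 called.

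**Figure D3:**
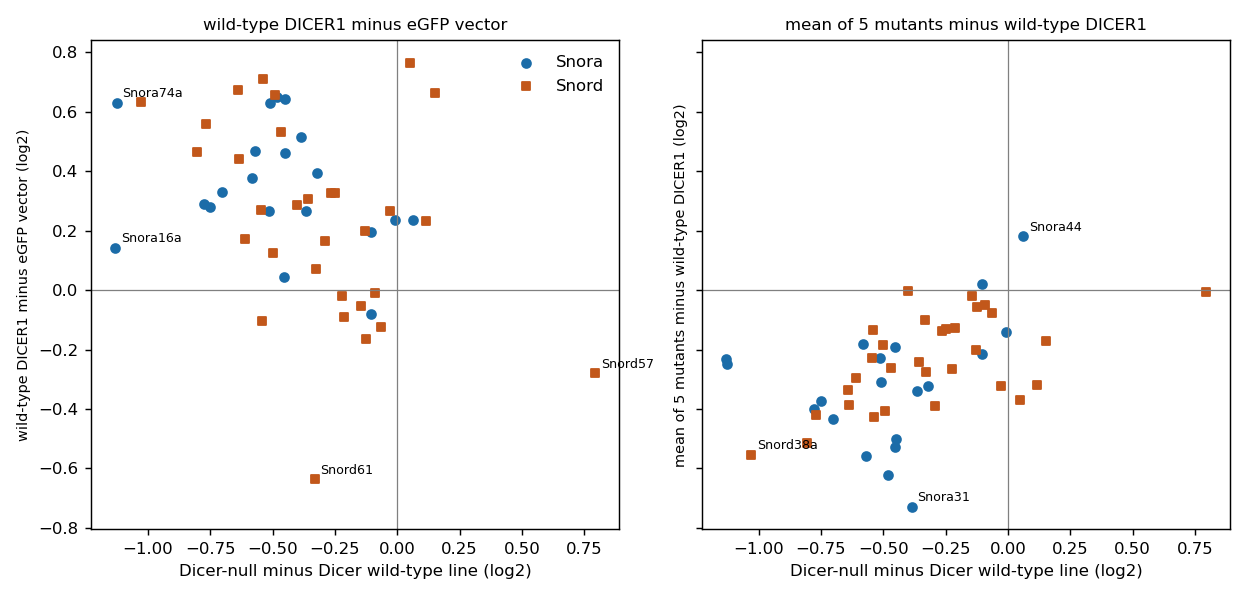
Each of the 51 snoRNA probe sets by its difference between the parental lines (x axis, log2) and its difference between wild-type DICER1 and eGFP (left, y axis, log2) or between the mean of 5 mutants and wild-type DICER1 (right, y axis, log2), with Snora as blue circles and Snord as orange squares. Most lie to the upper left in the left panel and to the lower left in the right panel, and Snord57 is the 1 snoRNA called higher in the Dicer-null line.

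Host transcripts mostly fell with their snoRNAs between the parental lines and moved in both directions in the rescue and with the mutants. For 26 snoRNAs the only host had a probe set of its own symbol, which gave 22 hosts. Between the parental lines 18 of these hosts fell and none rose (19.8% and 22.4% of all symbols). The median over the 26 pairs was -0.27 for the host and -0.39 for the snoRNA. With the eGFP vector 14 hosts rose and none fell (14.7% and 19.6% of all symbols), with medians of 0.23 and 0.07. With wild-type DICER1 over eGFP, 4 hosts rose and 9 fell (23.1% and 21.0% of all symbols). The median was -0.02 for the host and 0.27 for the snoRNA. With the mutants against wild-type DICER1, 7 hosts rose and 6 fell (24.1% and 22.1% of all symbols). The median was -0.02 for the host and -0.23 for the snoRNA. Of the snoRNAs called, the host was called in the same direction for 14 of 16 between the parental lines. In the rescue it was so for 6 of 20, with 5 hosts called the opposite way, and for the mutants for 6 of 18, again with 5 the opposite way. Across the pairs r was 0.35, 0.64 and 0.19 in these 3 comparisons, as a description only, since 4 hosts hold 2 of the snoRNAs each.

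Single loci show the range. Snora31 rose by 0.52 with wild-type DICER1 while Tpt1 differed by -0.09 ± 0.024 (adjusted p = 0.00379), and between the mutants and wild-type DICER1 they differed by -0.73 and 0.04. For Snora41 and its host Eef1b2, a translation elongation factor gene, the rescue differences were 0.46 and -0.16, and the mutant differences -0.53 and 0.11. Snord53 and Wdr43 moved the same way in both, with 0.77 and 0.36 in the rescue and -0.37 and -0.14 for the mutants. Between the parental lines, however, Wdr43 differed by -0.37 and Snord53 by 0.05, and with the eGFP vector by 0.26 and -0.55.

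**Figure D4:**
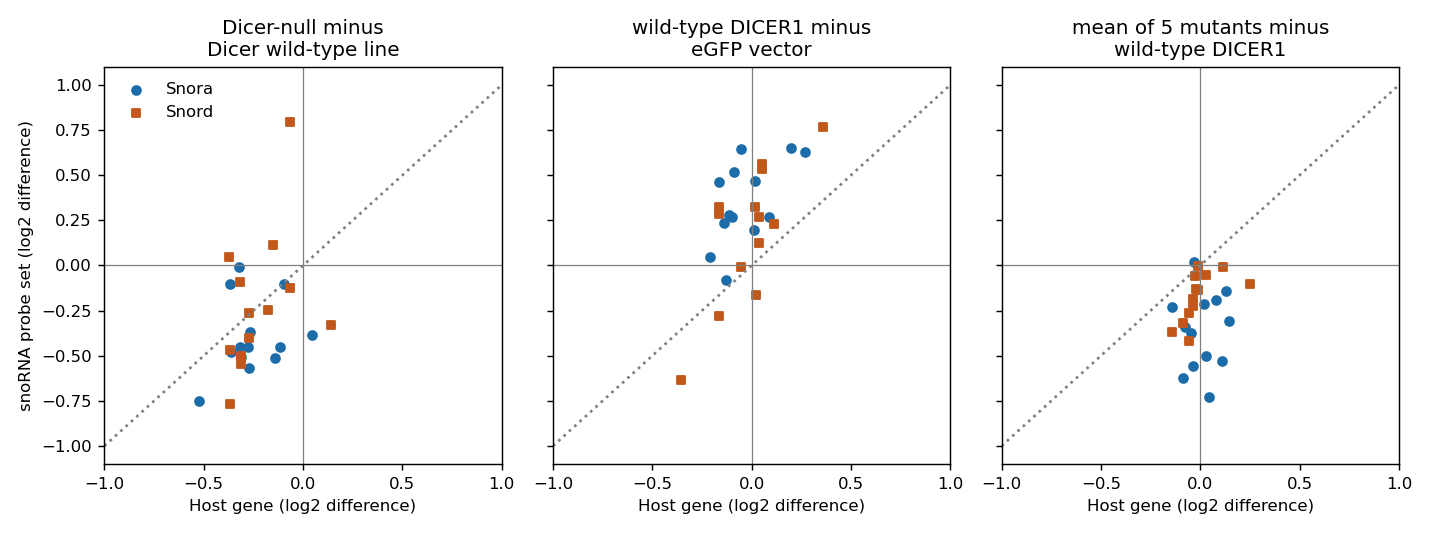
Difference of the snoRNA probe set (y axis, log2) against that of its host gene (x axis, log2) for the 26 snoRNAs with 1 host that has a probe set, in 3 comparisons, with Snora as blue circles, Snord as orange squares and a dotted line where both are equal. In the right panel hosts cluster near 0 while most snoRNAs lie below 0.

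Where 1 host held 2 of the snoRNAs, they did not always move together. Nucleolin (Ncl), a nucleolar protein gene, holds Snora75 and Snord82. Snora75 differed by -0.45 between the parental lines, 0.64 in the rescue and -0.50 with the mutants, all called, and Snord82 by -0.09, -0.01 and -0.05, none called. In Snhg12, Snora16a differed by -1.13 and Snora44 by 0.06 between the parental lines. In 2410006H16Rik, a non-coding host, Snord49a differed by -0.61, 0.17 and -0.29, all called, while Snord49b was not called. In Rps3, Snord15a and Snord15b differed by -0.55 and -0.50 between the parental lines, 0.27 and 0.13 in the rescue (Snord15b not called there) and -0.23 and -0.19 with the mutants. Rack1 (Snord95, Snord96a), Snhg3 (Snora73a, Snora73b) and Rps3a1 (Snord73a, Snord73b) held pairs of which both were called, in the same direction, in these 3 comparisons. No difference between 2 snoRNAs of a host was tested.

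Snora44, in Snhg12, was the 1 snoRNA higher in the mutants than with wild-type DICER1 (0.18 ± 0.058, adjusted p = 0.0118), and that rested on the PGKnvA mutants. It read 10.90 and 10.93 in E1813Q and 10.04 and 9.67 in D1709N. On the other 24 arrays it lay between 8.86 and 9.75. Alone against wild-type DICER1, E1813Q differed by 1.44 ± 0.12 (adjusted p = 8.2e-10) and D1709N by 0.38 ± 0.12 (adjusted p = 0.0146). D1709A differed by -0.28 ± 0.083 and D1810Y by -0.55 ± 0.089, both called, and E1705K by -0.09 ± 0.089, not called. With the ENvA mutants alone the difference from wild-type DICER1 was -0.31 (adjusted p = 0.00067). For all 5 mutants without array 5 of wild-type DICER1, which is in PGKnvA, it was 0.07 with an adjusted p of 0.299. The PGKnvA term of that fit rested on the 1 remaining PGKnvA array of wild-type DICER1 and was taken off the PGKnvA mutants. Snora16a of the same host read between 10.49 and 10.60 in the PGKnvA mutants and was not among the higher.

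Snord118 also divided the mutants. Against wild-type DICER1 it was higher in E1705K (0.43 ± 0.077, adjusted p = 5.39e-05) and D1810Y (0.22 ± 0.077, adjusted p = 0.0263), lower in D1709N (-0.89 ± 0.10, adjusted p = 1.49e-07) and E1813Q (-0.49 ± 0.10, adjusted p = 0.000443), and not called in D1709A (-0.12 ± 0.071). The mutants in PGKnvA were lower than those in ENvA by 0.87 (SE 0.105, adjusted p = 7.59e-06).

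**Figure D5:**
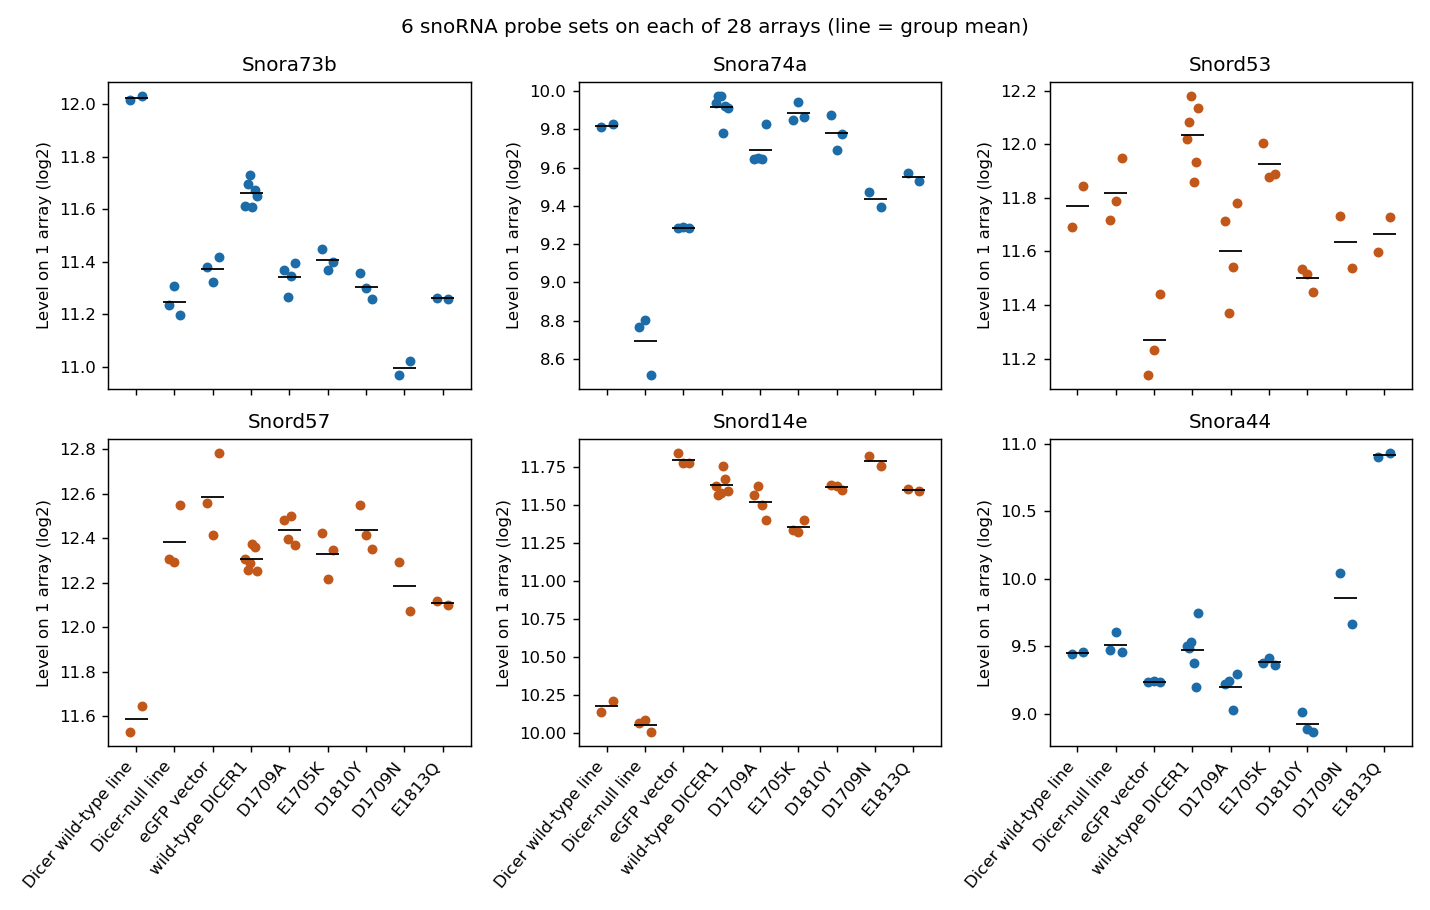
Log2 level of 6 snoRNA probe sets on each of the 28 arrays by group, with a line at the group mean and a separate y axis for each. Snora73b is highest in the Dicer wild-type line and next with wild-type DICER1, Snora74a is lowest in the Dicer-null line and about as high in E1705K (mean 9.89) as in the Dicer wild-type line (9.82), Snord53 is low with eGFP, Snord57 is low in the Dicer wild-type line alone, Snord14e is high on all 23 arrays with a transgene, and Snora44 is high in E1813Q.

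The box H/ACA core proteins Dkc1, the pseudouridine synthase, Nop10, Nhp2 and Gar1 had 3 of 4 genes lower in the Dicer-null line and 3 of 4 higher with wild-type DICER1 over eGFP. Gar1 differed by -0.24 ± 0.074 and 0.67 ± 0.062 in these comparisons and by -0.30 ± 0.040 between mutants and wild-type DICER1. Dkc1 differed by -0.26, 0.39 and -0.15, all called. For the mutants against wild-type DICER1, Nop10 was higher (0.15) and Nhp2 was not called. Of the box C/D core proteins Fbl, the methyltransferase, Nop56, Nop58 and Snu13, 1 was lower and 1 higher between the parental lines, and 2 were higher and 1 lower in the rescue. Nop58 differed by -0.47, 0.20 and -0.29 in the 3 comparisons, all called, and Nop56 fell in the rescue (-0.16) and rose with the mutants (0.11).

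Of 13 assembly factors, 7 were lower and none higher between the parental lines (53.8%, against 19.8% of all symbols lower). In the rescue 5 were higher and none lower (38.5%, against 23.1% of all symbols higher). Against the eGFP vector, the mutants had 9 higher and none lower (69.2%, against 21.6% of all symbols higher). With the mutants against wild-type DICER1, 4 were higher and 2 lower (46.2% called, against 46.1% of all symbols). Znhit6 and Rpap3 differed by -0.69 and -0.72 between the parental lines and by 0.49 and 0.48 in the rescue. The shares of all symbols called higher and lower, given above for each comparison, apply also to the lists that follow and to the core proteins. Of 7 nucleases and helpers that trim snoRNA ends, 5 were lower and 1 higher between the parental lines, 4 were higher in the rescue, and Xrn2, an exonuclease, was the 1 lower with the mutants (-0.09). Of 10 nucleolar and RNA polymerase I genes, none was higher and 1 lower in the rescue. For the mutants against wild-type DICER1 4 of them were higher and 3 lower.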

How the data were processed

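Per the labels' protocols, ES cells in log phase gave total RNA (Qiagen miRNeasy) for the Ambion WT and GeneChip WT labelling kits. The authors deposited log2 values for each probe set. RMA and Partek 6.6 are named in the submitters' processing notes, with settings not given in the sources used here. The table held 35556 probe sets on 28 arrays, of which 21789 had 1 gene symbol in the platform annotation, 56 of them snoRNAs of 51 symbols. All 51 matched a RefSeq symbol of GRCm38.p6. Hosts were assigned by position alone, since the reference table used here gives no strand.

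All 19938 symbols and 28 arrays entered 1 limma 3.58.1 model (R 4.3.3) with a coefficient per group and a PGKnvA term, a mean-variance trend, two-sided tests and Benjamini-Hochberg adjustment at 0.05. The PGKnvA term rests on the wild-type DICER1 arrays alone, whose PGKnvA and ENvA means were equal within 7.5e-05. In this fit it therefore corrected no difference for the vector. The number of arrays limits the precision. The script was tested on simulated data. Figures used Python 3.11.15 and matplotlib 3.10.9. Members, lists and tests were chosen with earlier results of these data known. Named members are up to 8 called rises and 8 called falls of each comparison, and members whose group means differ by 1 or more. Members of 1 host, and those of the larger counts, were named after their values were seen. Of 14 non-coding hosts listed, 4 had a probe set with 1 symbol (Gas5, Snhg5, Meg3, Rian): 3 were lower between the parental lines, 2 higher with the vector, none called in the rescue or between mutants and vector, and 1 lower with mutants against wild type.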

Additional observations from a re-analysis of the deposited data

Results flagged for a closer look

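In 102 groups of 4 or 6 arrays tested for an array far from the others, 6 were found. Chance would give about 5 in 100 if the arrays were independent, which they are not. Snora74a was low on array 4 of wild-type DICER1 (9.7802, nearest other 9.9108) and high on array 4 of D1709A (9.8301, nearest other 9.6521). These are not separate findings. In the deposited values, the arrays numbered 4 of these groups depart from the means of arrays 1 to 3 by equal and opposite amounts. Snora33 was high on array 4 of D1709A (9.135). Snora7a was high on array 1 of D1709A (11.184), and Snord15a (8.4932) and Snord73a (6.6172) were low on array 3 of D1709A.

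For 4 of the 9 snoRNAs named between mutants and wild-type DICER1, the mutants in PGKnvA differed from those in ENvA in the limma fit. The difference of PGKnvA minus ENvA was 1.2187 for Snora44 (adjusted p = 7.59e-07), -0.5473 for Snora31 (adjusted p = 0.000126), -0.3763 for Snora20 (adjusted p = 0.0429) and -0.3719 for Snora75 (adjusted p = 0.0062). Snora44 was thus higher and the other 3 lower in PGKnvA, where mutation and vector cannot be told apart.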

How the results depend on the processing

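Of 61 named results, 48 kept their direction and side of the threshold under every alternative run, 11 lost the call under at least 1, and 3 (1 of them also among the 11) reversed, all with the ENvA mutants alone: Snora44 (-0.0705) and Snora31 (0.0054) against the vector and Snora44 (-0.3064) against wild-type DICER1. In that setting mutants against vector gave 19 higher and 4 lower, and mutants against wild type 3 higher. Mutants against vector gave 15 lower without the vector term and 16 lower with arrays centred. Taken singly against wild type, D1709A, E1705K and D1709N gave 2 higher and D1810Y 3, and E1705K and D1810Y gave 25 lower each. With the filter on low values 2 rose between the parental lines.

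Leaving out each array in turn gave 1 to 2 higher and 27 to 33 lower between the parental lines, 13 to 21 and 6 to 10 for the vector, 26 to 37 and 2 to 3 in the rescue, 7 to 11 and 6 to 12 for mutants against vector, and 0 to 1 and 36 to 40 for mutants against wild type. The parental rises were 2 without array 3 of the Dicer-null line, array 2 or 3 of eGFP, or array 2 of the Dicer wild-type line. The mutant rise was lost without array 5 of wild-type DICER1. The cause was not tested.

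With the replicate number as a block, 2 rose and 32 fell between the parental lines, and 1 rose and 36 fell for mutants against wild type. Over 87 pairs of arrays with the same number, the correlation of deviations from group means ran from -0.406 to 0.598, with a median of -0.0199. Over 168 pairs with other numbers it ran from -0.574 to 0.424, with a median of 0.00683. Both pool all groups and symbols, so they cannot show whether the numbers pair some of the samples. Among arrays 1 to 3, the mean snoRNA level was lowest on array 2 in eGFP, E1705K, D1810Y and wild-type DICER1. In D1709A and the Dicer-null line it was not. Probe sets near the 30th percentile level of 6.42, such as Snord38a, Snord58b and Snord61, have the least signal over background.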

Other observations

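Outside the 51, 41 probe sets named several genes of which at least 1 was a snoRNA. Of these, 24 were annotated to the Snord116 repeats, box C/D RNAs of an imprinted locus. Their group means ran from 10.37 to 11.03 in the Dicer-null line, 9.69 to 10.37 with eGFP, 9.14 to 9.75 with wild-type DICER1 and 9.25 to 9.89 in the Dicer wild-type line. The mutant groups lay between 8.83 and 9.77. The 2 probe sets shared by Snord14c, Snord14d and Hspa8 read 11.15 and 11.17 in the Dicer-null line, 11.38 and 11.40 in the Dicer wild-type line, and between 12.13 and 12.59 in the groups with a transgene, the same division as Snord14e. These values were not tested.

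Among 15 other small RNAs, chosen after the data were seen, 4 were higher and 3 lower in the rescue in the limma fit (23.1% and 21.0% of all symbols). With the mutants against wild-type DICER1, 1 was higher and 10 lower (24.1% and 22.1%). Against eGFP, the mutants had none higher and 7 lower (21.6% and 17.8%). Between the parental lines 2 were higher and 5 lower (22.4% and 19.8%), and with the eGFP vector none was higher and 5 lower (14.7% and 19.6%). The 4 higher in the rescue were Rnu3a, the U3 box C/D RNA (0.26), and the Cajal body RNAs Scarna8 (0.46), Scarna13 (0.36) and Scarna17 (0.72). Between the mutants and wild-type DICER1 these differed by -0.56, -0.30, -0.44 and -0.56, all called. The 3 lower in the rescue were Rny3 (-0.60), Vaultrc5 (-0.87) and Rn7sk (-0.09).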
